A study of Mus musculus with 24 samples.

Results

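The genes described are 10 core genes of the circadian clock: Arntl (also called Bmal1), Clock, Per1, Per2, Per3, Cry1, Cry2, Nr1d1, Nr1d2 and Dbp. They were taken by symbol from a table of RNA sequencing read counts of mouse pituitary, and they are 10 of its 35191 genes. The table has 24 libraries in 8 groups of 3, which combine 2 sexes with 4 genotypes. Wild type libraries carried neither Cre nor floxed Egr1, and Cre control libraries carried Cre with unfloxed Egr1. Egr1cKO control libraries carried floxed Egr1 without Cre, and Egr1cKO libraries carried floxed Egr1 with Cre. Egr1 is an early-response gene for a zinc-finger activator of transcription, and the libraries named Egr1cKO are meant to lack it where Cre acts. The sources used here do not give the Cre driver, the floxed exon, the age of the mice or the hour of collection. The titles number unfloxed and floxed libraries in separate series, so floxed Egr1 and the number series cannot be told apart.

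The clock is a transcriptional feedback loop that runs in most cells, the hormone cells of the pituitary included. ARNTL and CLOCK form a dimer that binds E-boxes and drives transcription of the Per, Cry, Nr1d1, Nr1d2 and Dbp genes, the PER and CRY proteins repress that dimer, and the NR1D proteins repress Arntl through ROR elements. In tissues sampled around the day, Arntl mRNA therefore peaks at about the time when Dbp and Nr1d1 mRNA are lowest, and the Per genes peak after Dbp. DBP itself is an activator that binds D-boxes.

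In GENCODE M21 on GRCm38 the genes of the activating dimer lie with Arntl (ENSMUSG00000055116) at chr7:113207465-113314126 on the plus strand and Clock (ENSMUSG00000029238) at chr5:76209868-76304792 on the minus strand. The Per genes are Per1 (ENSMUSG00000020893) at chr11:69095217-69109960 on the plus strand, Per2 (ENSMUSG00000055866) at chr1:91415982-91459324 on the minus strand and Per3 (ENSMUSG00000028957) at chr4:151003652-151044665 on the minus strand. The Cry genes are Cry1 (ENSMUSG00000020038) at chr10:85131700-85185064 on the minus strand and Cry2 (ENSMUSG00000068742) at chr2:92403646-92434043 on the minus strand. The NR1D repressors are Nr1d1 (ENSMUSG00000020889) at chr11:98767932-98775333 on the minus strand and Nr1d2 (ENSMUSG00000021775) at chr14:18204054-18239127 on the minus strand, and the output gene is Dbp (ENSMUSG00000059824) at chr7:45705088-45710203 on the plus strand.

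The loop acts through DNA motifs, and start-site windows of these genes were searched for matches to them. RefSeq windows of build GRCm38.p6, running from 250 bases before to 50 bases after a start site, were at hand for 9 of the 10 genes, with 13 windows in all. Each was searched on both strands for the E-box CACGTG, the D-box TTATGTAA or TTACGTAA, the ROR element TAGGTCA or TGGGTCA, the cAMP response element TGACGTCA and the EGR site GCGTGGGCG or GCGGGGGCG. The sequences below run 5′ to 3′ on the gene's strand, stop before annotated exons, and have motif letters in capitals. Arntl, Dbp, Per1 and Nr1d1 were chosen for printing by rule, and the windows of Per3 and Cry1 were added after their matches were seen.
Arntl, upstream, chr7:113207215-113207464, plus strand: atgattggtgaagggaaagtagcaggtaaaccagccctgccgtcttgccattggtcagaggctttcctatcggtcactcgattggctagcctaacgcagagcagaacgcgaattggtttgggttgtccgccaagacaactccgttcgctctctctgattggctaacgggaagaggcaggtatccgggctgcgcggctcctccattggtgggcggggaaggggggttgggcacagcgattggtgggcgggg
Arntl, the site with a ROR element in the second window, chr7:113207530-113207559, plus strand: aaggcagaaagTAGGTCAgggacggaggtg
Dbp, upstream, chr7:45704997-45705087, plus strand: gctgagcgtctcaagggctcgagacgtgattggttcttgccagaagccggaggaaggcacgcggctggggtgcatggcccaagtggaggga
Nr1d1, upstream, chr11:98775378-98775627, minus strand: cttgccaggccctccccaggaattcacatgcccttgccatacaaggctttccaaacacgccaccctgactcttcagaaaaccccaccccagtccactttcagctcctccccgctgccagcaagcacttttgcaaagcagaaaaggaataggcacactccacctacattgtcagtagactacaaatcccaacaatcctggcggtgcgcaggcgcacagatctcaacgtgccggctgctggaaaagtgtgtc
Per1, upstream, first window, chr11:69098699-69098947, plus strand: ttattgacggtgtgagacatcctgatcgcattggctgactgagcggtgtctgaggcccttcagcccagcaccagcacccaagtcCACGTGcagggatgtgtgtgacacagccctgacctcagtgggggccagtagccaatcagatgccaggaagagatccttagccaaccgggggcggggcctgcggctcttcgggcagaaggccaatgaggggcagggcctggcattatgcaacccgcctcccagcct
Per3, upstream, chr4:151044666-151044915, minus strand: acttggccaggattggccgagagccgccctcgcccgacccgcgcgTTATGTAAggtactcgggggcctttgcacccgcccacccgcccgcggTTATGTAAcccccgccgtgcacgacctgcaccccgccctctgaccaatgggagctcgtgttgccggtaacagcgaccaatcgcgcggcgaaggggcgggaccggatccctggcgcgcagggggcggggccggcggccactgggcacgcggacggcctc
Cry1, upstream, chr10:85185065-85185304, minus strand: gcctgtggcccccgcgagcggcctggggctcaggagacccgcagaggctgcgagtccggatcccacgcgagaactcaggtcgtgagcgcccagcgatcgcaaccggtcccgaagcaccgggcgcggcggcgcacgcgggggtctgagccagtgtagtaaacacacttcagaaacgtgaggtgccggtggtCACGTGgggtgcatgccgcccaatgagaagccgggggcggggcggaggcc
Counting from the start site, the ROR element of Arntl lay at 31 to 37, the E-box of Per1 at -166 to -161 and that of Cry1 at -60 to -55. Per3 had 2 D-boxes, at -205 to -198 and at -158 to -151. The windows of Clock, Cry2, Nr1d1, Nr1d2 and Dbp held none of these letters. An E-box was present in 7.15% of all 32851 RefSeq windows of this length, a ROR element in 6.45% and a D-box in 1.06%. No window of the 9 genes held the cAMP response element, present in 1.79% of all windows, or the EGR site, present in 3.47%.

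All 10 genes were read in every library and passed the filter on low counts. Levels were expressed as CPM, a gene's count relative to its library's total, scaled by TMM, a correction for library composition. Per kilobase of exon, the median level over 24 libraries ran from 41.5 CPM for Nr1d2 and 34.9 CPM for Nr1d1, the repressor pair, through 24.9 for Dbp, 24.3 for Per3 and 23.7 for Per1. Per2 followed with 9.83 CPM per kilobase, Cry2 with 8.67, Cry1 with 5.70, Clock with 5.14 and Arntl with 2.702. The libraries were not stranded, so reads of overlapping genes on the opposite strand cannot be told apart: 18.01% of the exon bases of Dbp are shared with Sphk2, 8.55% of those of Nr1d1 with Thra and 4.67% of those of Cry2 with D930015M05Rik.

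The genes differed in how much they varied. From its lowest to its highest library the level of Dbp spanned 7.39-fold, that of Per2 6.79-fold, that of Arntl 5.65-fold and that of Per3 5.37-fold. Clock, the constant partner of the dimer in most tissues, spanned 2.06-fold. The spread between libraries of 1 group, as the SD of log2 CPM, placed Per2 at percentile 97.4, Dbp at 95.1, Arntl at 94.4, Cry1 at 91.2 and Per3 at 88.5 among 11024 genes whose log2 CPM averaged 3 or more. Per1 stood at percentile 84, Nr1d1 at 83.1, Nr1d2 at 72.3, Cry2 at 50.9 and Clock at 25.6. All but Cry2 and Clock thus varied more among libraries of the same label than the typical gene above that abundance.

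Arntl, the activator whose mRNA peaks when Dbp and Nr1d1 are lowest, was highest in female Cre control. Its levels there were 54.7, 50.8 and 45.5 CPM, against 14.0, 18.4 and 23.5 CPM in female wild type. Male wild type measured 17.2, 17.96 and 19.7 CPM and male Cre control 20.9, 10.8 and 26.3 CPM. The 3 female Cre control libraries lay above all libraries of these other groups. The share of all genes without overlap between 2 groups is given with each comparison below.

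In the floxed groups Arntl was less even. Female Egr1cKO measured 36.6, 19.5 and 61.1 CPM and female Egr1cKO control 42.5, 24.2 and 17.4 CPM, with Egr1cKO replicate 3 the highest of all 24. Male Egr1cKO measured 11.4, 11.7 and 32.6 CPM and male Egr1cKO control 14.7, 21.4 and 19.3 CPM. Libraries of the same group thus differed here as much as groups did.

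Dbp, the D-box activator that is a direct output of the dimer, ran the other way. It measured 17.2, 18.6 and 30.8 CPM in female Cre control and 80.5, 68.7 and 74.2 CPM in female wild type. In males it measured 64.8, 85.3 and 83.1 CPM in wild type and 115, 127 and 86.8 CPM in Cre control. The female Cre control libraries were below all libraries of those 3 groups, a pattern whose share over all genes was not computed. The male Cre control libraries were above all male wild type libraries, where 21.6% of all genes did not overlap.

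The floxed groups again held libraries far from their own group. Dbp measured 58.6, 79.3 and 17.6 CPM in female Egr1cKO, and the low replicate 3 was the one with the highest Arntl. In male Egr1cKO it measured 110, 119 and 44.99 CPM, and again replicate 3 combined the lowest Dbp with the highest Arntl of its group. Female Egr1cKO control measured 42.01, 75.1 and 89.0 CPM, with its lowest value in the library of highest Arntl, and male Egr1cKO control 69.0, 73.9 and 89.1 CPM.

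**Figure D1:**
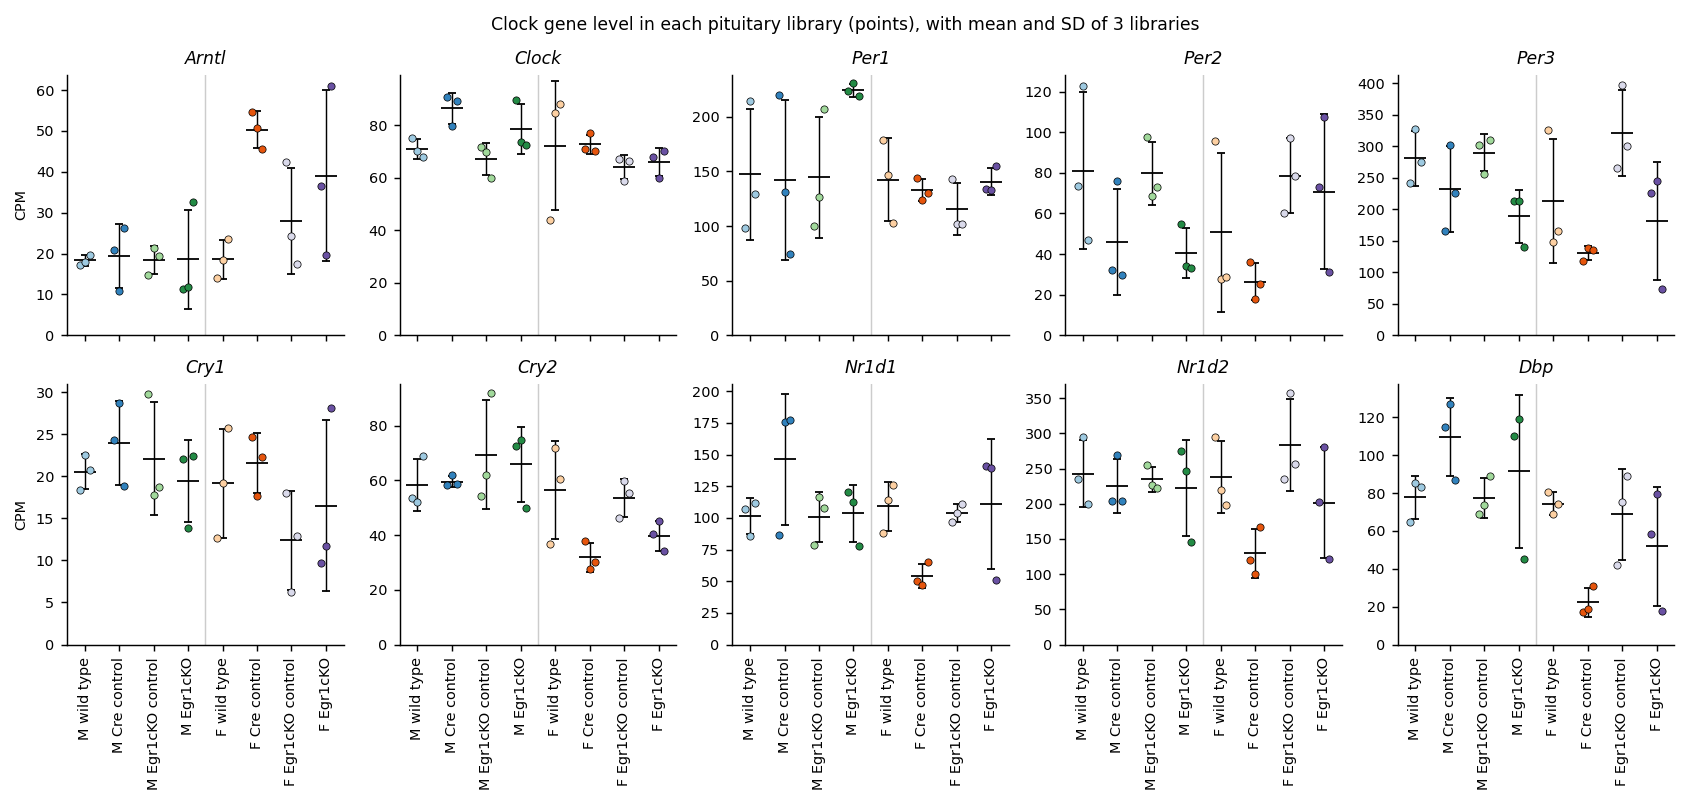
Level of each of the 10 clock genes in CPM by group (M, male; F, female), with points for single libraries and bars for the mean and SD of 3. Female Cre control has the highest mean of Arntl and the lowest mean of Per2, Per3, Cry2, Nr1d1, Nr1d2 and Dbp.

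The log2 ratio of Arntl to Dbp counts sets both in 1 number per library. The counts were not divided by gene length, so the ratio is compared between libraries and not read as which gene was higher. It averaged 1.23 ± 0.59 (SD, n = 3) in female Cre control, with 1.67, 1.45 and 0.56. Its mean was -2.03 ± 0.45 (SD, n = 3) in female wild type, -2.08 ± 0.17 (SD, n = 3) in male wild type and -2.58 ± 0.92 (SD, n = 3) in male Cre control.

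The floxed controls averaged -1.32 ± 1.22 (SD, n = 3) in females and -2.08 ± 0.25 (SD, n = 3) in males. Egr1cKO averaged -0.30 ± 1.94 (SD, n = 3) in females and -2.36 ± 1.64 (SD, n = 3) in males. The ratio ran from -3.55 in male Cre control replicate 2 to 1.80 in female Egr1cKO replicate 3. Male Egr1cKO measured -3.27, -3.34 and -0.47 and female Egr1cKO -0.68, -2.02 and 1.80, so libraries of each of these groups were far apart.

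**Figure D2:**
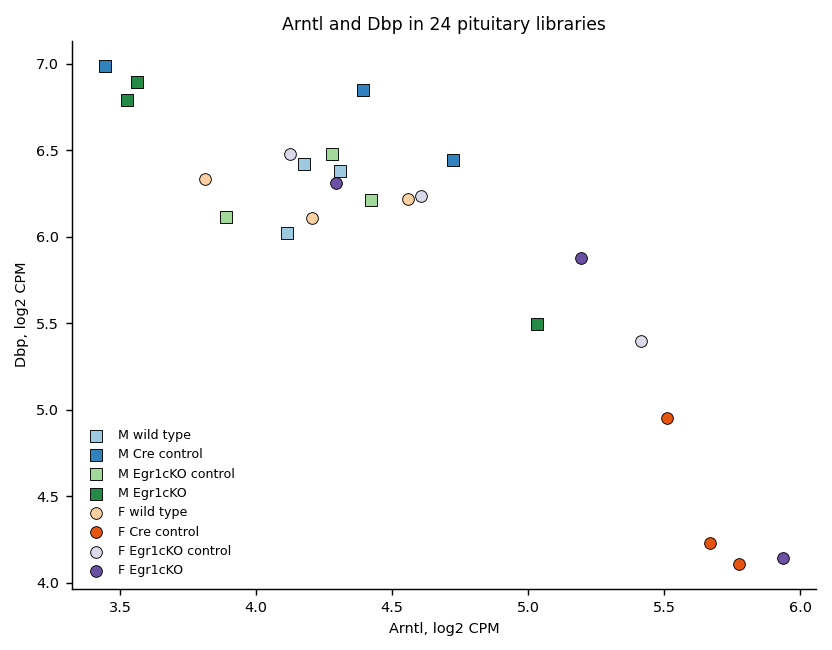
Level of Dbp against level of Arntl in each of 24 libraries, both in log2 CPM, with squares for males, circles for females and colour by genotype. The 3 female Cre control libraries and female Egr1cKO replicate 3 sit at high Arntl and low Dbp. Replicates 1 and 2 of male Cre control and of male Egr1cKO have the highest Dbp.

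Nr1d1 and Nr1d2 encode the REV-ERB repressors of Arntl. Nr1d1 measured 50.5, 46.9 and 65.2 CPM in female Cre control, 87.8, 114 and 126 in female wild type, 107, 85.3 and 111 in male wild type and 86.2, 176 and 177 in male Cre control. Nr1d2 measured 120, 101 and 167 CPM in female Cre control, 295, 219 and 198 in female wild type, 235, 294 and 199 in male wild type and 204, 269 and 203 in male Cre control. For both genes the female Cre control libraries lay below all libraries of the other 3 unfloxed groups.

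In female Egr1cKO, Nr1d1 measured 141, 140 and 51.3 CPM and Nr1d2 203, 280 and 122 CPM. The low replicate 3 of both is the one that was low in Dbp. The other floxed groups had means of 104 ± 7.43 CPM (SD, n = 3) for Nr1d1 in female Egr1cKO control, 101 ± 19.6 in male Egr1cKO control and 103 ± 22.8 in male Egr1cKO (SD, n = 3 each), so for Nr1d1 these groups lay within their spread of each other. Nr1d2 averaged 283 ± 65.25 CPM in female Egr1cKO control and 234.6 ± 17.69 in male Egr1cKO control (SD, n = 3 each). In male Egr1cKO it measured 274.6, 246.7 and 146.1 CPM, and the low replicate 3 was again the one with the lowest Dbp.

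Of the repressors of the dimer, Per3 measured 118, 138 and 135 CPM in female Cre control, 326, 148 and 165 in female wild type, 241, 327 and 274 in male wild type and 166, 303 and 226 in male Cre control. Per2, a required repressor of the loop, measured 35.9, 18.1 and 25.5 CPM in female Cre control, 95.9, 27.7 and 28.6 in female wild type, 73.6, 123 and 47.0 in male wild type and 32.1, 75.9 and 29.5 in male Cre control. Per2 of female Cre control was below male wild type without overlap and overlapped with the other 2 groups. Per3 of female Cre control was below all libraries of the other 3. The share of all genes was not computed for either pattern.

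In the floxed groups Per3 measured 225, 245 and 74.1 CPM in female Egr1cKO, 265, 398 and 300 in female Egr1cKO control, 212, 214 and 140 in male Egr1cKO and 302, 256 and 310 in male Egr1cKO control. Per2 measured 73.1, 108 and 31.3 CPM in female Egr1cKO, 60.2, 97.1 and 78.4 in female Egr1cKO control, 55.0, 33.9 and 33.1 in male Egr1cKO and 97.7, 68.6 and 73.3 in male Egr1cKO control. Per3 of Egr1cKO was below its control group in both sexes without overlap, and so was Per2 in males, while Per2 of the female groups overlapped. Neither gene was called in these comparisons, where 21% of all genes in males and 21.5% in females did not overlap.

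Per1, which also responds within minutes to hormone and second-messenger signals, did not share this order. Its means were 133 ± 9.99 CPM in female Cre control, 143 ± 38.1 in female wild type, 147 ± 59.98 in male wild type and 142 ± 73.3 in male Cre control (SD, n = 3 each). Male Egr1cKO measured 223, 231 and 219 CPM and male Egr1cKO control 100, 127 and 207 CPM, without overlap, where 21% of all genes did not overlap. Female Egr1cKO measured 134, 133 and 155 CPM and female Egr1cKO control 143, 102 and 102 CPM, with overlap.

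Cry2, the other arm of repression, measured 37.7, 27.5 and 30.2 CPM in female Cre control, 36.9, 71.8 and 60.7 in female wild type, 53.6, 52.1 and 69.1 in male wild type and 58.3, 61.8 and 58.6 in male Cre control. In the floxed groups it measured 40.4, 45.03 and 34.1 CPM in female Egr1cKO, 46.1, 59.8 and 55.3 in female Egr1cKO control, 72.8, 74.9 and 50.01 in male Egr1cKO and 54.4, 62.0 and 92.1 in male Egr1cKO control. Females with Cre were below the males of the same genotype in all libraries, whether or not Egr1 was floxed. Between these sexes 33% of all genes in Cre control and 38.4% in Egr1cKO did not overlap.

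Cry1, a late-phase repressor, had group means between 12.4 ± 5.89 CPM in female Egr1cKO control and 23.98 ± 4.94 CPM in male Cre control (SD, n = 3 each). Clock had group means between 64.1 ± 4.57 CPM in female Egr1cKO control and 86.4 ± 6.03 CPM in male Cre control (SD, n = 3 each). For Cry1 the ranges of groups next to each other in this order overlapped. Clock of male Cre control lay above male wild type and female Cre control without overlap, where 21.6% and 33% of all genes did not overlap.

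The first comparison asks what went with Cre where Egr1 was not floxed. In females, Dbp fell by 1.74 on the log2 scale in Cre control against wild type (SE 0.411, 3.35-fold, edgeR quasi-likelihood test, adjusted p = 0.0406), 1 of 10 clock genes called where 1.21% of all 21927 genes tested were called. Arntl was at 1.43 on that scale (edgeR adjusted p = 0.0842), Nr1d1 at -1.01 (0.0831), Nr1d2 at -0.88 (0.095) and Cry2 at -0.83 (0.0626), with the adjusted p in brackets, and none of these was called. An unadjusted p under 0.05 was reached by 6 of the 10, against 16.8% of all genes. Groups did not overlap for 5 of the 10 genes (Arntl above, and Per3, Nr1d1, Nr1d2 and Dbp below), against 14.8% of all genes. Per2 was at -0.94, Per3 at -0.71, Per1 at -0.10, Cry1 at 0.17 and Clock at 0.01. The median log2 fold change over the 10 was -0.77, and over all genes tested -0.04. DESeq2 called 5 of the 10 (Arntl, Cry2, Nr1d1, Nr1d2 and Dbp, with adjusted p from 0.000641 to 0.0299), where it called 1011 of 20216 genes. With mitochondrial share as a covariate edgeR lost Dbp (adjusted p = 0.0575) and called 2 others, where 599 of 21927 genes were called. It also lost Dbp with genes detected as a covariate (0.0679, 285 of 21927 genes called) and with the compared groups alone (0.169, 2 of 18053 genes called). The call on Dbp was kept in 1 of 6 fits that each left out 1 library: without female Cre control replicate 1, 2 or 3 or female wild type replicate 2 or 3 the adjusted p rose to at most 0.177, with log2 fold changes from -2.06 to -1.60. Mitochondrial transcripts took 10.1% of counts in female wild type replicate 1, against 2.14% and 2.7% in replicates 2 and 3. Without replicate 1, Per3 was at -0.27 (edgeR adjusted p = 0.681), Nr1d2 at -0.69, Arntl at 1.26 and Cry2 at -1.06.

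In males, none of the 10 genes was called between Cre control and wild type, where 0.233% of all genes were called, and none had an unadjusted edgeR p under 0.05, against 10.8% of all genes. DESeq2 called none. Dbp was at 0.49 (95% interval -0.35 to 1.34) and Arntl at 0.08 (-0.79 to 0.95) on the log2 scale, with the other 8 between -0.82 for Per2 and 0.53 for Nr1d1. Groups did not overlap for 2 of 10 genes, Clock and Dbp, both higher with Cre, against 21.6% of all genes. The difference between the sexes in this Cre effect, a comparison added after the data had been seen, was -2.24 for Dbp (SE 0.57, edgeR adjusted p = 0.0755), -1.54 for Nr1d1 (SE 0.415, adjusted p = 0.0777) and 1.35 for Arntl (SE 0.58, adjusted p = 0.223), with the others between -0.86 for Cry2 and -0.05 for Per1 and Cry1. None of the 10 was called there, 4 had an unadjusted p under 0.05 (18% of all genes), and 0.128% of all genes were called.

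**Figure D3:**
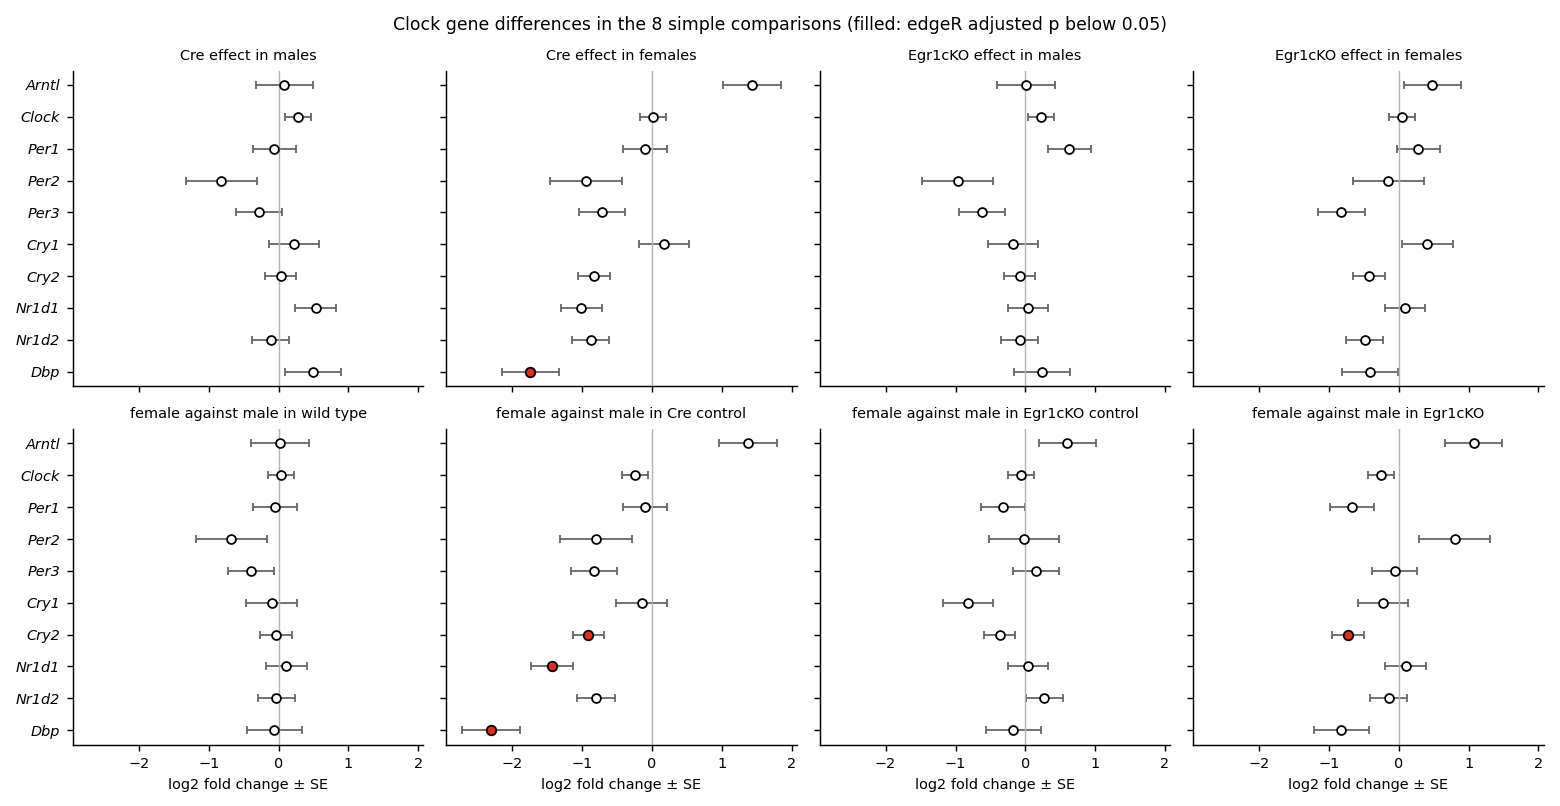
Log2 fold change of each clock gene from edgeR, with bars of 1 SE either way, in the Cre and Egr1cKO effects by sex and in females against males by genotype, with filled markers for adjusted p under 0.05. In females Cre control against wild type has Arntl at 1.43 and Dbp at -1.74, while in males the same comparison has them at 0.08 and 0.49.

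Egr1cKO was set against Egr1cKO control, both with floxed Egr1. Egr1 itself measured 58.3, 237.8 and 105 CPM in the libraries labelled male Egr1cKO and 51.1, 22.7 and 42.8 CPM in their control, and 162, 7.55 and 26.6 CPM against 34.2, 10.97 and 9.79 CPM in females. In males every library labelled Egr1cKO was thus above every control library, and in females the groups overlapped. These levels do not show a loss of Egr1 mRNA. The 12 early genes listed, Egr1 among them, had a median log2 fold change of 1.69 in males and 1.32 in females. For Cre without floxed Egr1 it was 2.06 and 1.54, with medians over all genes from -0.05 to 0.03. None of the 12 was called in these comparisons, and the part of Cre in the level of Egr1 was not tested. Counts per gene do not check the loss of an exon. None of the 10 clock genes was called between Egr1cKO and Egr1cKO control in either sex, where 0.041% of all genes were called in males and 2.21% in females. In males none had an unadjusted edgeR p under 0.05 (6.57% of all genes), and in females 1 had (19.3% of all genes). DESeq2 called none in either sex, where it called 103 of 15968 genes in males and 1453 of 21066 in females. Per1, an early-response member, was at 0.63 (95% interval -0.03 to 1.29) on the log2 scale in males and at 0.28 (-0.38 to 0.94) in females. Per3 was at -0.62 (-1.32 to 0.08) in males and at -0.82 (-1.52 to -0.12, edgeR adjusted p = 0.175) in females, and Arntl at 0.01 (-0.86 to 0.88) and 0.48 (-0.39 to 1.34). Per2 was at -0.97 in males, where the other 6 lay between -0.18 for Cry1 and 0.24 for Dbp. In females the other 7 lay between -0.49 for Nr1d2 and 0.41 for Cry1. Groups did not overlap for 4 of 10 genes in males (Clock and Per1 above, Per2 and Per3 below) and for 2 of 10 in females (Per3 and Cry2 below), against 21% and 21.5% of all genes.

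The difference between the sexes in the Egr1cKO effect, also added after the data had been seen, called none of the 10 with edgeR and none had an unadjusted p under 0.05, where 0.0228% and 8.44% of all genes did. Per2 was at 0.82 in it (95% interval -0.70 to 2.34) and Dbp at -0.65 (-1.84 to 0.54), with the other 8 between -0.41 for Nr1d2 and 0.59 for Cry1.

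The Egr1cKO effect was also set against the Cre effect, averaged over the sexes. None of the 10 genes was called, none had an unadjusted edgeR p under 0.05 (5.13% of all genes), and 0% of all genes were called with edgeR. DESeq2 called none of the 10, where it called 3 of 21917 genes. Dbp and Per1 were both at 0.54 on the log2 scale, with 95% intervals from -0.30 to 1.38 and from -0.12 to 1.19, and Arntl was at -0.51 (-1.38 to 0.35). The others lay between -0.23 for Per3 and 0.32 for Per2. Egr1cKO control against wild type, the comparison of floxed with unfloxed Egr1 without Cre, had no clock gene called with edgeR or DESeq2, none with an unadjusted edgeR p under 0.05 (7.17% of all genes), and 0% of all genes called with edgeR. Its log2 fold changes for the 10 genes lay between -0.26 for Cry1 and 0.32 for Per3. Of 21917 genes, DESeq2 called 0 in this comparison.

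Over all 12 Cre carriers, floxed or not, Per3 fell by 0.61 on the log2 scale against non-carriers of the same sex and Egr1 allele (SE 0.165, 1.52-fold, edgeR adjusted p = 0.025). It was the 1 clock gene of 10 called, where 6.89% of all genes were. Per2 was at -0.72 (edgeR adjusted p = 0.098), Nr1d2 at -0.39 (0.0771), Cry2 at -0.33 (0.0798) and Arntl at 0.50 (0.154), the adjusted p being in brackets, and none of these was called. The other 5 lay between -0.35 for Dbp and 0.19 for Per1. DESeq2 called 3 of the 10, where it called 2180 of 21066 genes. With a covariate, edgeR called 4 for mitochondrial share (4239 of 21927 genes called) and 2 for genes detected (2310 of 21927 genes called). The call on Per3 was lost, with adjusted p up to 0.0643, without female Egr1cKO control replicate 2, female wild type replicate 1, male Cre control replicate 1 or male Egr1cKO replicate 3.

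The design text names a sex difference as the subject of the series, so females were set against males within each genotype. In wild type no clock gene differed between females and males by the test or without overlap, with 0.283% of all genes called and 10.1% without overlap. Dbp was at -0.06 (95% interval -0.90 to 0.78) and Arntl at 0.02 (-0.85 to 0.89), and the others lay between -0.68 for Per2 and 0.11 for Nr1d1. No clock gene had an unadjusted edgeR p under 0.05 (7.03% of all genes) or was called with DESeq2, which called 202 of 21066 genes. In Egr1cKO control none was called with edgeR or DESeq2, with 1 gene, Cry1, at an unadjusted p of 0.0319 (-0.82 on the log2 scale, 13.8% of all genes having such a p), and 0.451% of all genes called. The others lay between -0.37 for Cry2 and 0.60 for Arntl. None was without overlap there, against 24.9% of all genes, and DESeq2 called 506 of 14693 genes.

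In Cre control, 3 clock genes were lower in females. Dbp was lower in females by 4.92-fold (log2 -2.30, SE 0.418, edgeR adjusted p = 0.00484), Nr1d1 by 2.7-fold (log2 -1.43, SE 0.297, adjusted p = 0.0096) and Cry2 by 1.87-fold (log2 -0.91, SE 0.227, adjusted p = 0.0286). These were 3 of 10 called, where 3.61% of all genes were, and 7 of 10 did not overlap (Arntl above, and Clock, Per3, Cry2, Nr1d1, Nr1d2 and Dbp below), against 33% of all genes. Arntl was at 1.38 (edgeR adjusted p = 0.0607), and the other 6 lay between -0.83 for Per3 and -0.10 for Per1. DESeq2 called 5 of the 10, where it called 2098 of 19791 genes. The compared groups alone gave 6 with edgeR, where 3066 of 18356 genes were called. Dbp stayed called in all 6 fits without 1 library, Nr1d1 in 3 of 6 (lost without female Cre control replicate 1 or 2 or male Cre control replicate 2) and Cry2 in 1 of 6, with adjusted p up to 0.104.

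In Egr1cKO the called clock gene was Cry2, lower in females by 1.65-fold (log2 -0.73, SE 0.226, edgeR adjusted p = 0.0358), where 13.1% of all genes were called, and the call was kept in 1 of 6 fits without 1 library. Clock, Per1 and Cry2, 3 of 10, did not overlap and were lower in females, against 38.4% of all genes. DESeq2 called 2 of the 10, where it called 4162 of 21066 genes. The genes other than Arntl and Cry2 lay between -0.82 for Dbp and 0.80 for Per2. Arntl was at 1.07 (edgeR adjusted p = 0.0825), and at 1.76 without male Egr1cKO replicate 3, where the lowest adjusted p of the fits without 1 library, 0.00901, was found. Without female Egr1cKO replicate 3 it was at 0.59 (adjusted p = 0.367).

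Averaged over the 4 genotypes, Arntl was higher in females (log2 0.77, SE 0.205, edgeR adjusted p = 0.0106), and Cry2 (-0.51, SE 0.113, adjusted p = 0.00241) and Dbp (-0.84, SE 0.2, adjusted p = 0.00584) were lower. These 3 of 10 stand beside 21.7% of all genes called, and the median of the 10 was -0.28 against -0.06 over all genes. The others lay between -0.33 for Cry1 and -0.14 for Clock. All 3 were called in each of 24 fits that left out 1 library. By genotype, Arntl, Cry2 and Dbp were at 0.02, -0.04 and -0.06 in wild type and at 0.60, -0.37 and -0.17 in Egr1cKO control. In Cre control they were at 1.38, -0.91 and -2.30, and in Egr1cKO at 1.07, -0.73 and -0.82. The difference between the sexes in the effect of carrying Cre, averaged over floxed and unfloxed Egr1, was -1.44 for Dbp (SE 0.4, edgeR adjusted p = 0.0587) and 0.91 for Arntl (adjusted p = 0.196), with the others between -0.74 for Nr1d1 and 0.35 for Per2. No clock gene was called in it with edgeR, 5 had an unadjusted p under 0.05 (21.9% of all genes), and 2.06% of all genes were called. DESeq2 called 1 of the 10, where it called 1373 of 20641 genes.

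Other measures moved with sex and with Cre in females. Mitochondrial transcripts took 5.52 to 6.69% of counts in female Cre control, 8.73 to 10.4% in female Egr1cKO, 3.498 to 6.87% in female Egr1cKO control and 2.14 to 10.1% in female wild type, and at most 4.80% in males. With that share as a covariate, Arntl between the sexes was at 0.82 (edgeR adjusted p = 0.259), Dbp at -0.80 (0.271) and Cry2 at -0.18 (0.603), the adjusted p being in brackets. In Cre control alone, Dbp was then at -2.26 (0.0633), Nr1d1 at -1.10 (0.148) and Cry2 at -0.54 (0.278). Of all 21927 genes, 596 were called between the sexes with this covariate and 4761 without it. In Cre control alone these numbers were 192 and 791. The values of Arntl and Dbp thus moved little while the calls were lost, and that of Cry2 was less than the reported one by more than 1.5 times. The summed level of 6 posterior lobe markers was 261 to 293 CPM in female Cre control and 309 to 427 CPM in female Egr1cKO, against 159 to 220 CPM in the other female groups and 60.8 to 196 CPM in males. In a bulk sample, fewer cells of a type and less RNA per cell cannot be told apart, and the part of these measures in the clock gene results was not tested further.

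Some of the listed markers of anterior pituitary, posterior lobe, blood, leukocytes and endothelium also moved with sex, and some with Cre. Over the genotypes, 5 of 11 anterior pituitary markers were lower in females (Fshb -3.99, Cga -0.83, Tshb -0.82, Gh -0.62 and Pou1f1 -0.56 on the log2 scale) and 1 higher, Prl (2.62). Higher in females were 5 of 6 posterior lobe markers (Oxt 1.45, Avp 1.30, Nkx2-1 0.93, Rax 0.78 and Col25a1 0.59) and 3 of 6 leukocyte markers (Cd68 0.59, Aif1 0.57 and Ptprc 0.37). Lower were 2 of 5 blood markers (Alas2 -1.16 and Hbb-bt -0.97) and 2 of 5 endothelial markers (Kdr -0.83 and Emcn -0.52). These counts stand against 21.7% of all genes called. In Cre carriers, Prl (-2.17), Gh (-1.13) and Pou1f1 (-0.97) were lower, and Pomc (1.44), Tshb (0.93) and Cga (0.64) higher, 6 of 11 anterior pituitary markers. Avp (1.25), Nkx2-1 (1.03), Col25a1 (0.69) and Oxt, 4 of 6 posterior lobe markers, and Emcn (0.34), 1 of 5 endothelial markers, were higher, against 6.89% of all genes called. Their part in the clock gene results was not tested.

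It was then asked whether Arntl and the genes that peak away from it, Dbp and the Per genes, were opposed across libraries. Each group's mean log2 CPM was subtracted from its libraries, so that differences between the 8 groups did not enter, and p came from two-sided permutation of libraries within groups, adjusted over the 45 pairs of the 10 genes. Arntl and Dbp had r = -0.82 (Spearman rho -0.76, n = 24, permutation p = 0.00088, adjusted 0.0103). For Arntl and Per2 r was -0.67 (rho -0.69, permutation p = 0.00154, adjusted 0.0139), and for Arntl and Per3 -0.70 (rho -0.69, permutation p = 0.0067, adjusted 0.0301). Arntl and Per1 had r = 0.02 (rho 0.07, permutation p = 0.945, adjusted 0.946). Pooled over the groups, Dbp, Per2 and Per3 thus tended to be low in libraries where Arntl was high for its group. Per1 showed no such relation. Single groups could go the other way: in male wild type the library of lowest Arntl, replicate 1 (17.2 CPM), also had the lowest Dbp (64.8 CPM).

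Among the other pairs, Arntl and Nr1d2 had r = -0.79 (rho -0.77, permutation adjusted p = 0.0103), Arntl and Nr1d1 -0.46 (rho -0.32, permutation adjusted p = 0.271), Arntl and Cry1 0.35, Arntl and Clock 0.26 and Arntl and Cry2 -0.26. Nr1d2 with Dbp (0.80), Nr1d2 with Per3 (0.80), Nr1d2 with Per2 (0.79), Per2 with Per3 (0.79) and Per3 with Dbp (0.75) formed a block of positive values. In all, 10 of 45 pairs passed an adjusted p under 0.05, 6 positive, those just named and Cry2 with Nr1d1 (0.50), and 4 negative, which were those of Arntl with Dbp, Nr1d2, Per3 and Per2.

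**Figure D4:**
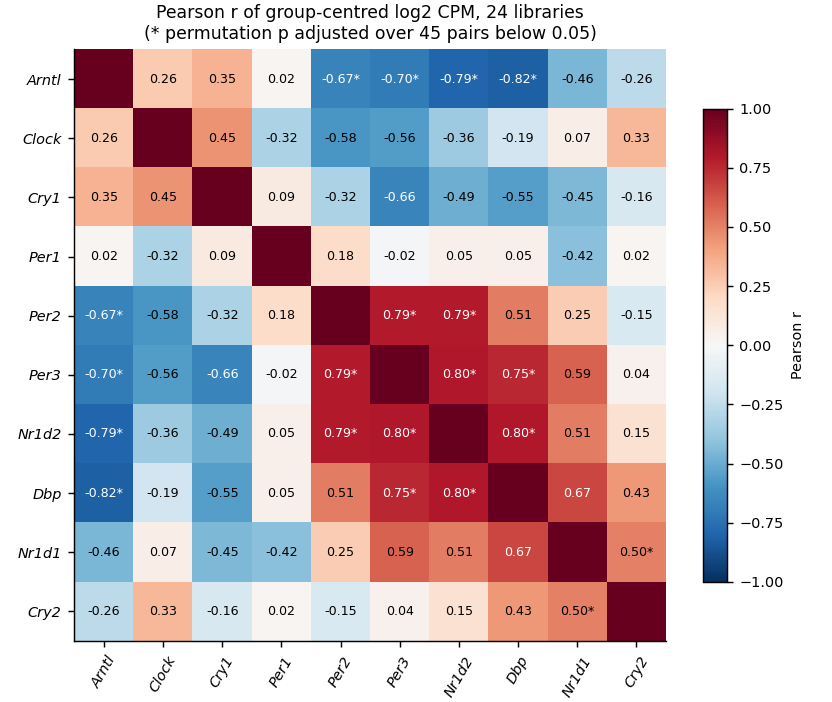
Pearson r between the group-centred log2 CPM of each pair of the 10 clock genes over 24 libraries, as a coloured grid with asterisks for an adjusted permutation p under 0.05. Arntl is negative with Dbp, Nr1d2, Per3 and Per2 (-0.82 to -0.67), which are positive with each other, and Per1 is near 0 with Arntl.

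The calls on these relations depended in part on the libraries included. Without the 2 libraries farthest from the median of group-centred Arntl, male Egr1cKO replicate 3 and female Egr1cKO replicate 2, r of Arntl and Dbp was -0.66 (permutation p = 0.0125, adjusted 0.0802), that with Per2 -0.67 (adjusted 0.0564) and that with Per3 -0.61 (adjusted 0.17). The signs held and none of the 3 pairs was called. Of the 3, r with Per2 stayed at -0.67. A smaller number of libraries and the absence of these 2 in particular cannot be told apart in the lost calls. Leaving out any 1 library kept r of Arntl and Dbp between -0.85 and -0.76, called each time.

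Within each number series the sign of all 3 relations was the same. Over the 12 unfloxed libraries r of Arntl was -0.50 with Dbp (permutation adjusted p = 0.307), -0.71 with Per2 and -0.64 with Per3. Over the 12 floxed libraries it was -0.90 with Dbp (permutation p = 0.0101, adjusted 0.0755), -0.76 with Per2 and -0.74 with Per3. Neither series alone had a pair past the threshold. Per1 was at -0.34 with Arntl in the unfloxed and 0.37 in the floxed libraries. Without subtracting group means, Arntl and Dbp had r = -0.90 over the 24 libraries, a value that includes the differences between groups.

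The genes most like Arntl and Dbp were sought among 11023 other genes whose log2 CPM averaged 3 or more, by the same group-centred r over 24 libraries, as a description. Dbp had the lowest r with Arntl of all of these genes, Nr1d2 the second lowest, Per3 the 9th and Per2 the 16th from the bottom. The other 3 of the 5 lowest named were Tie1 (-0.76), Bhlhe41 (-0.76) and Osbpl10 (-0.76). Tie1 encodes an endothelial receptor, and Bhlhe41 a repressor that competes for E-boxes. The 5 highest with Arntl were Asphd2 (0.82), Csdc2 (0.77), Zbtb18 (0.74), Shtn1 (0.73) and Megf11 (0.72).

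For Dbp the highest were Bhlhe41 (0.85), Tspan4 (0.81), Nr1d2 (0.80), Adcy2 (0.80) and Gyg (0.80), and Arntl was the lowest, before Selenon (-0.77), Slc9a9 (-0.76), Slc35a4 (-0.75) and Rexo2 (-0.74). Per3 ranked 10th and Nr1d1 35th from the top for Dbp. These points share libraries and depth with one another.

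A list of 22 further clock-associated genes, all tested, was read the same way. Since Arntl and Dbp were opposed over these libraries, a gene high with one tended to be low with the other, and the values below are a description. Npas2, a stand-in for CLOCK in the dimer, had 0.88 with Arntl and -0.68 with Dbp. It lay below the abundance limit set for the other genes, with group means from 1.79 ± 0.436 CPM in male wild type to 17.7 ± 4.58 CPM in female Cre control (SD, n = 3 each). Nfil3, a repressor at D-boxes, had 0.51 and -0.59. Rorb, a receptor of the ROR family, had 0.58 and -0.65.

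Among the genes on the side of Dbp were other outputs of the loop. Tef, a D-box activator of the family of Dbp, had -0.76 with Arntl and 0.77 with Dbp, Ciart, a repressor of the dimer, -0.67 and 0.75, and Usp2, a deubiquitinase, -0.63 and 0.62. Bhlhe40, the close relative of Bhlhe41, had -0.56 and 0.73. On the same side, Btrc had -0.39 with Arntl and 0.61 with Dbp, Hlf -0.24 and 0.49, Nampt -0.32 and 0.40, and Wee1 -0.39 and 0.31. Csnk1d and Csnk1e, kinases of the PER proteins, stayed within -0.24 and 0.19.

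**Figure D5:**
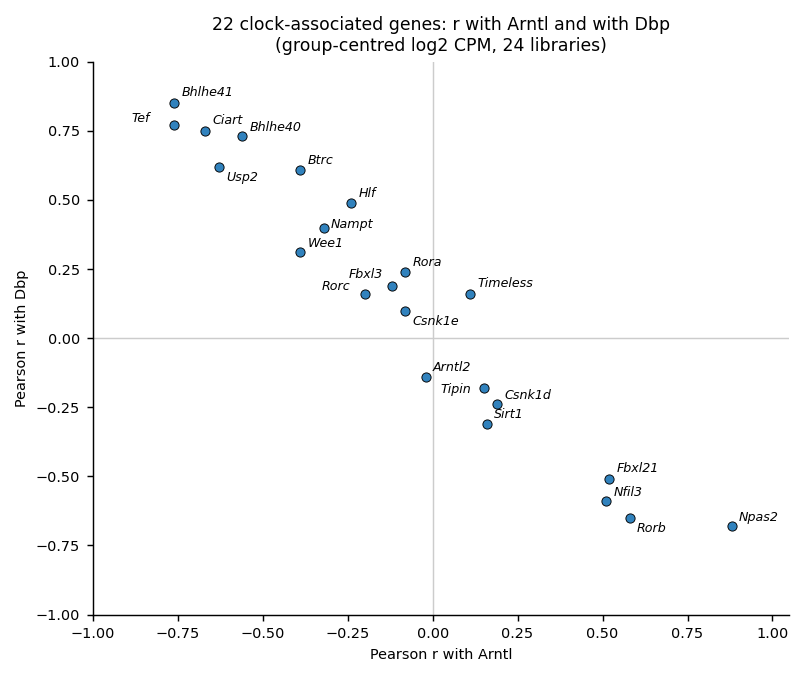
Group-centred Pearson r with Dbp against r with Arntl over 24 libraries, with 1 point for each of the 22 clock-associated genes. Npas2, Rorb and Nfil3 lie at positive r with Arntl and negative r with Dbp, and Tef, Bhlhe41 and Ciart at the opposite corner.

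By the test, none of the 22 associated genes was called with edgeR in the Egr1cKO or Cre comparisons of 1 sex, where the share of all genes called was 0.041%, 2.21%, 0.233% and 1.21%. An unadjusted p under 0.05 was reached by 2 for Egr1cKO in males, against 6.57% of all genes, and by 4 in females, against 19.3%. For Cre it was reached by 3 in males, against 10.8% of all genes, and by 9 in females, against 16.8%. In Cre carriers 1 was higher, Rorb (log2 0.48, edgeR adjusted p = 0.00553), and 1 lower, Usp2 (-0.58, adjusted p = 0.0111), against 6.89% of all genes called. Between the sexes 2 were higher in females, Npas2 (1.30, edgeR adjusted p = 0.0215) and Sirt1 (0.30, 0.0124), and 5 were lower. These were Rora (-0.59), Usp2 (-0.46), Nampt (-0.44), Bhlhe40 (-0.44) and Hlf (-0.43), with 15 not called, against 21.7% of all genes called. In Egr1cKO 5 of the 22 were called between the sexes, against 13.1% of all genes. Rora (-1.32), Bhlhe40 (-1.02), Hlf (-0.84) and Nampt (-0.75) were lower in females there and Sirt1 (0.62) higher. Bhlhe40 was also lower in females of Cre control (-0.87, edgeR adjusted p = 0.0394), 1 of 22 against 3.61% of all genes. It and Rora had a difference between the sexes in the effect of Cre (-1.01, edgeR adjusted p = 0.031, and -1.07, adjusted p = 0.0427), against 2.06% of all genes. The smallest p of the list for Cre in females were those of Usp2 (-0.86, edgeR adjusted p = 0.121), Ciart (-2.11, adjusted p = 0.157) and Btrc (-0.44, adjusted p = 0.182). That for Cre in males was of Rorb (0.63, edgeR adjusted p = 0.278), and those for Egr1cKO were of Bhlhe40 in males (0.63, adjusted p = 0.588) and Rorb in females (0.73, adjusted p = 0.0705).

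2 further lists bear on inputs to Per1 and the clock. Of 8 genes induced by glucocorticoids, 3 were lower in females over the genotypes, Zbtb16 (-1.49), Fkbp5 (-1.18) and Klf9 (-0.60), with a list median of -0.51, against 21.7% of all genes called and a median of -0.06. Of 12 early genes, which respond within minutes to stimulation, 3 were higher in Cre carriers, Nr4a2 (1.94), Sik1 (1.42) and Ier2 (1.11), against 6.89% of all genes called, and their summed level ran from 168 to 5382 CPM over the 24 libraries. Egr2, another early gene, was lower in females (-1.55). Whether either list had a part in the clock gene values was not tested.

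The libraries held 15486069 to 26255343 counts each. Summed Y-linked levels put all 24 libraries on the side of their label, and all 11 anterior pituitary markers passed the filter. Replicates of a group differed by more than sampling noise in all 24 pairs, with a chi-square per degree of freedom of at least 16.3. The labels do not say that libraries came from separate animals, so p-values measure the spread between these samples, which may be technical. Replicate numbers follow accession order and only name a library.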

How the data were processed

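RNA was measured in 24 mouse pituitary libraries in 8 groups of 3 that combine sex and genotype. The authors deposited 1 table of raw counts per Ensembl gene, not normalized. Per the labels' protocols, RNA was purified with the RNeasy mini kit and libraries were not stranded. Per the submitters' processing notes, reads were handled with Trim Galore 3.8.2, FastQC and STAR 2.7.9 on GRCm38. The sources used here do not give the counting tool or its annotation.

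Of 35191 identifiers, 35065 matched GENCODE M21, which gave symbols and coordinates. Counts were fitted in R 4.3.3 with edgeR 4.0.16 (filterByExpr, TMM, robust quasi-likelihood, 1 mean per group, Benjamini-Hochberg adjustment over 21927 genes at 0.05). The SE was the absolute log2 fold change divided by the square root of F. Correlations used log2 CPM with a prior count of 2 and 100000 permutations. The scripts were tested on simulated data. The 10 genes and all lists were chosen with earlier results of these data known. The rule was to give all 10 in each comparison and to name listed genes where called, with up to 3 of smallest p of the associated list. Here some of the 10 are given as a range, fewer of smallest p are named outside the Cre effect in females, and genes of the other lists are named only for Cre carriers and for sex over the genotypes. For likeness, the 5 highest and 5 lowest were named, skipping Gm and Rik names and pseudogenes. Alternatives were RLE scaling, DESeq2 1.42.0, no filter or a mean of at least 10 CPM, 2 covariates (mitochondrial share, genes detected), fits on the compared groups alone and leaving out each library. For single genes, alternatives were followed where a gene was called or had an unadjusted p under 0.05.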

Additional observations from a re-analysis of the deposited data

How the results depend on the processing

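No paired analysis was possible because the labels give the groups no shared replicate numbers. Counts below are of the 10 clock genes called, with the number of all genes called in brackets. With no filter on low counts (35191 genes tested), the Egr1cKO effect called 1 gene in males (339) and 1 in females (1142). The Cre effect called 1 in males (704) and 7 in females (1149), and Cre carriers called 6 (2196). Female against male called 6 (5372), the sex by Cre interaction 3 (2081), and female against male 7 in Cre control (2426) and 5 in Egr1cKO (3706). DESeq2 called 5 for the Cre effect in females (1011 of 20216), 3 for Cre carriers (2180 of 21066) and 1 for the interaction (1373 of 20641). Between the sexes it called 5 in Cre control (2098 of 19791) and 2 in Egr1cKO (4162 of 21066). Fitted on the compared groups alone, the Egr1cKO effect in males called 1 (192 of 18485) and the Cre effect in females 0 (2 of 18053). Sex called 6 in Cre control (3066 of 18356) and 2 in Egr1cKO (3699 of 18187). With a mean of at least 10 CPM (10614 genes tested) the Cre effect in females called 2 (392), the interaction 1 (654) and sex in Egr1cKO 2 (2855). With mitochondrial share as a covariate (21927 genes tested) the Cre effect in females called 2 (599) and Cre carriers 4 (4239). Female against male called 0 (596), and sex 0 in Cre control (192) and 0 in Egr1cKO (215). With genes detected as the covariate these were 0 (285), 2 (2310), 0 (767), 1 (256) and 0 (148). Leaving out 1 library at a time gave 0 to 3 for the Cre effect in females, 0 to 2 for Cre carriers and 3 to 4 for female against male. It gave 0 to 2 for the interaction, 1 to 3 for sex in Cre control and 0 to 2 for sex in Egr1cKO. The number of all genes called is not given for the fits that left out 1 library. The causes of these changes were not tested. The correlation of Arntl with Dbp was -0.50 in unfloxed and -0.90 in floxed libraries and -0.66 without the 2 farthest libraries, and these lost the call. With Per2 the same settings gave -0.71, -0.76 and -0.67, and with Per3 -0.64, -0.74 and -0.61. With Per1 the sign turned in uncentred values (-0.16), in unfloxed libraries (-0.34) and in uncentred values without the 2 farthest libraries (-0.23), a setting chosen after seeing the data, which gave -0.45 with Per2 and -0.47 with Per3. Leaving out 1 library gave -0.85 to -0.76 with Dbp, -0.08 to 0.23 with Per1, -0.72 to -0.58 with Per2 and -0.76 to -0.62 with Per3, the call being kept in 24 of 24 fits for Dbp, 23 for Per2 and 15 for Per3. Depth was not low for any clock gene, the lowest count in a library being 101, for Cry1. Each group had 3 libraries, and the edgeR fits shared the estimate of the spread over the groups fitted.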
